A study of Mus musculus with 72 samples.

Results

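The solute carriers that return phosphate, glucose and amino acids from the tubular fluid to the blood were examined in kidneys of Balb/c mice given 177Lu, a beta-emitting radionuclide. The 10 genes chosen were the sodium-phosphate cotransporters Slc34a1 and Slc34a3, the sodium-glucose cotransporters Slc5a2 and Slc5a1, the glucose exit transporter Slc2a2, and the amino acid carriers or subunits Slc6a19, Slc7a7, Slc7a8, Slc7a9 and Slc3a1. They were found by symbol among the 25697 array probes, which named 16593 genes, and each gene is represented by its brightest probe. Slc3a1 had no probe under its symbol and was not analysed here, so 9 of 10 genes are described, from 15 probes. All 9 passed the filter on low intensity in cortex and in medulla.

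Total RNA from fresh-frozen kidney cortex and kidney medulla was hybridised to 72 Illumina mouse bead arrays. Exposed groups had an absorbed dose of 0.3, 3 or 10 Gy and were taken at 1.5, 3 or 4.5 months. Controls were taken at the same times; their labels give no absorbed dose but carry the same nuclide tag as the exposed groups, so what the controls received is not settled by the labels. Each of the 24 groups of tissue, dose and time held 3 arrays, and the labels do not say whether replicate arrays came from separate animals, so p-values measure only the spread between arrays, which may be partly technical. The labels give neither sex nor age, and the time in months is the only age-related entry.

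The array labelled cortex control at 1.5 months, replicate 3, stood apart and was left out: its mean Pearson correlation with the other cortex arrays was 0.640, against at least 0.973 for each of the others. On it the 9 transporters lay between 1.98 and 7.55 log2 units below their medians on the other cortex arrays, with Slc34a1 at 6.96 against 14.50. This leaves 35 cortex and 36 medulla arrays, and 2 arrays in that control group. Some results that rest on it are also given with the array kept. Cortex differences from control at 1.5 months and the cortex dose by time test are described only without it.

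In the proximal tubule the apical membrane takes up phosphate, glucose and amino acids from the filtrate by carriers that run on the sodium gradient or on exchange, and basolateral carriers pass glucose and amino acids on to the blood. Slc34a1 and Slc34a3 are the apical phosphate carriers under the control of parathyroid hormone and of FGF23 with its coreceptor Klotho. Slc5a2 takes up most filtered glucose in the early tubule, whereas Slc5a1 works further along, in the straight segment that reaches into the outer medulla; Slc2a2 is the basolateral exit. Slc6a19 is the apical carrier of neutral amino acids and needs collectrin (Cltrn) in the kidney. Slc7a9 with Slc3a1 takes up cystine and dibasic amino acids, and Slc7a7 and Slc7a8 are basolateral exchangers that pair with the heavy chain Slc3a2. The transcription factors HNF1 and HNF4 act on many genes of this segment.

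Promoters were compared because 5 of the transporters moved together from array to array while Slc34a1 in cortex did not. Slc34a1 lies near the top of the intensity scale, and the effect of this on its correlations was not tested. Entries were held for 9 of the 10 genes in the RefSeq promoter table (GRCm38.p6), not for Slc5a2. The 250 bases before the annotated start are shown for Slc34a1 and for 3 of the genes that moved together, 5′ to 3′ on the gene's strand, with capitals marking the HNF1 motif (GTTAAT, or ATTAAC on the other strand) and the GC box (GGGCGG, or CCGCCC).
Slc34a1, chr13:55399398-55399647, plus strand: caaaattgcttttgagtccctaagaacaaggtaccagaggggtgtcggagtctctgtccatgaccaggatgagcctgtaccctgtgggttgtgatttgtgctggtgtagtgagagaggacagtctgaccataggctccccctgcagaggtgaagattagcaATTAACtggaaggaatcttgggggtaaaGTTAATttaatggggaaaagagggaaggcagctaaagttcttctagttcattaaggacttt
Slc34a3, chr2:25234235-25234484, minus strand: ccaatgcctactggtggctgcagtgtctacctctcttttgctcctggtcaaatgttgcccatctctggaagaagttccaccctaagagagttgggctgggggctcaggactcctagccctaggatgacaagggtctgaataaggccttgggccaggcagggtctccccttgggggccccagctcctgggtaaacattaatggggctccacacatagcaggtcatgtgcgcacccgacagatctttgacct
Slc6a19, chr13:73692637-73692886, minus strand: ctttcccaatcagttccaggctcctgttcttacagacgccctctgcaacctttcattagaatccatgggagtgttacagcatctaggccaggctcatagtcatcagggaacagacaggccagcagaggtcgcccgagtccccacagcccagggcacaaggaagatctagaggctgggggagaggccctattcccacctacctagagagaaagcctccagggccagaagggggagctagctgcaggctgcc
Slc7a8, chr14:54781887-54782136, minus strand: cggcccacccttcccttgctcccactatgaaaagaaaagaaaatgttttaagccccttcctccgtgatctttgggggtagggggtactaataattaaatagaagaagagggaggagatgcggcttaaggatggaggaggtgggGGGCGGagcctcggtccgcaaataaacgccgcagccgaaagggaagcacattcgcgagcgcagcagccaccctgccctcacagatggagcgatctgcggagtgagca

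Slc34a1 held the HNF1 motif once on each strand, 89 to 84 and 61 to 56 bases before the start. Slc7a7, which also moved together with the others but is not shown, held it at 1 of its 5 annotated starts. At other starts Slc7a7 held a GC box. The HNF1 motif occurred on either strand in 6.43% of the 32851 mouse promoters of this length. Slc34a3 and Slc6a19 held neither motif, and Slc7a8 held 1 GC box, a motif present in 32.7% of all promoters. Slc5a1, Slc2a2 and Slc7a9, outside the set that moved together, held neither motif. Of these, Slc2a2 also correlated with the set, with r of 0.40 to 0.73 in cortex and 0.39 to 0.77 in medulla. The set was read from these same arrays, and Slc5a2, part of it, had no promoter entry. Whether a shared motif goes with the set was not tested. The 9-letter HNF4 repeat CAAAGTCCA (TGGACTTTG on the other strand), found in 0.384% of all promoters, occurred only in that of Slc3a1, which had no probe. These matches describe letters in the window and no measured binding.

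Values are log2 of the intensities deposited by the authors, which were brought to one common distribution over all arrays. A probe's level cannot be set against another probe's, because probes differ in how brightly they hybridise, so each gene is compared only with itself. Slc34a1 sat at the top of the scale: its probe had the highest intensity of the array, 25866, on 2 of 71 arrays and never ranked lower than 88 of 25697. The common distribution leaves little room above it, which limits how far its values can differ. The plot of transporter intensity by tissue, time and dose shows all arrays used.

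**Figure D1:**
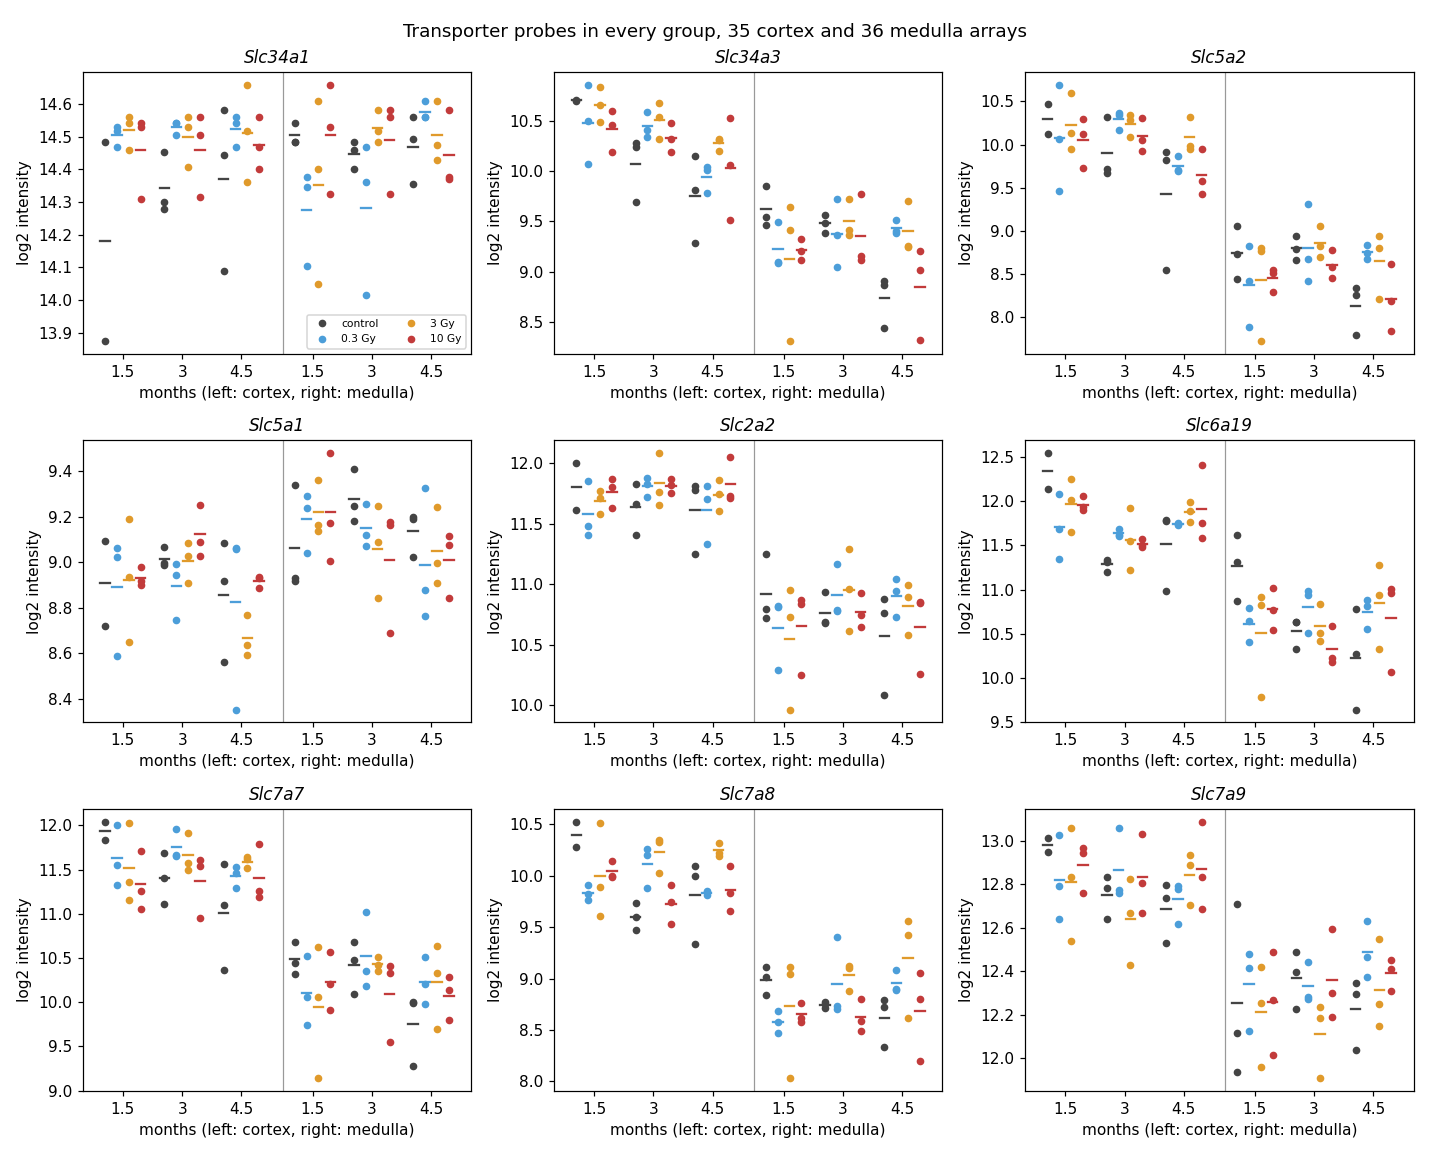
Log2 intensity of the 9 transporters on each array, by time in months (x axis) in cortex (left of the grey line) and medulla (right); points are arrays, short bars are group means, and colours are control, 0.3, 3 and 10 Gy. Slc5a2, Slc7a7, Slc7a8, Slc6a19, Slc2a2 and Slc34a3 sit lower in medulla, Slc34a1 spans a narrow range in both tissues, and the cortex control group at 1.5 months has 2 arrays.

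Control medulla was compared with control cortex to ask how the transporters divide between the tissue samples. Of the 9 transporters, 7 were lower in control medulla and 2 were slightly higher, and all 9 passed limma's moderated test at an adjusted p of 0.05 (Benjamini-Hochberg over 9024 genes). The background was high: 37.4% of all genes passed, 18.7% higher and 18.7% lower in medulla. The median difference of the 9 transporters was -0.93 log2, against -0.01 for all genes.

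The apical glucose carrier Slc5a2 differed most. Its log2 intensity on the 8 control cortex arrays ranged from 8.55 to 10.47 with a median of 9.87, and on the 9 control medulla arrays from 7.79 to 9.06 with a median of 8.66. The groups overlapped through 1 low cortex array, control at 4.5 months replicate 3. The difference averaged over the 3 times was -1.32 ± 0.17 log2 (SE), 2.49-fold lower in medulla, with an adjusted p of 3.18e-09 in limma.

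The basolateral exchangers of amino acids followed. Slc7a7 ranged from 10.36 to 12.04 (median 11.48) in control cortex and from 9.28 to 10.68 (median 10.32) in control medulla, a 2.34-fold lower level (-1.23 ± 0.17 log2, adjusted p 4.71e-08, limma). Slc7a8 ran from 9.34 to 10.53 (median 9.87) in cortex and from 8.33 to 9.12 (median 8.77) in medulla, with no overlap (true of 8.08% of all genes), 2.23-fold lower (-1.15 ± 0.13 log2, adjusted p 1.40e-10). A second probe of each gene gave -1.24 and -1.07 log2.

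Among the apical amino acid carriers, Slc6a19 ran from 10.98 to 12.55 (median 11.55) in control cortex and from 9.64 to 11.62 (median 10.63) in control medulla. The tissues overlapped, and the mean was 2.05-fold lower in medulla (-1.04 ± 0.15 log2, adjusted p 1.87e-07, limma). Slc7a9, the cystine carrier, showed a smaller difference, 1.44-fold lower (-0.52 ± 0.09 log2, adjusted p 3.70e-06), with 12.53 to 13.01 in cortex and 11.94 to 12.71 in medulla. Its other 2 probes gave -0.39 and -0.66 log2.

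The glucose exit carrier Slc2a2 had a lowest value of 11.25 and a median of 11.72 in control cortex, and a median of 10.76 and a highest value of 11.25 in control medulla, the highest medulla array falling just short of the lowest cortex array. It was 1.91-fold lower in medulla (-0.93 ± 0.12 log2, adjusted p 1.15e-08, limma), and its other 2 probes gave -0.73 and -0.69 log2. The phosphate carrier Slc34a3 ranged from 9.29 to 10.71 in cortex and from 8.44 to 9.85 in medulla, and was 1.86-fold lower (-0.90 ± 0.14 log2, adjusted p 8.53e-07).

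Slc5a1 and Slc34a1 went the other way by small amounts. Slc5a1, the glucose carrier of the straight segment, ran from 8.56 to 9.09 (median 8.99) in control cortex and from 8.92 to 9.41 (median 9.19) in control medulla, a difference of 0.23 ± 0.10 log2 (adjusted p 0.0472, limma). Slc34a1 ran from 13.87 to 14.58 (median 14.37) in cortex and from 14.35 to 14.56 (median 14.48) in medulla, a difference of 0.18 ± 0.07 log2 (adjusted p 0.0438). Both sets of arrays overlapped. Without cortex control 1.5 months replicate 2 the differences were 0.17 (adjusted p 0.223) for Slc5a1 and 0.07 (adjusted p 0.479) for Slc34a1. Over the 26 alternative settings and left-out arrays, Slc5a1 passed in 13 and Slc34a1 in 12, with the medulla higher in each.

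Keeping the array that stood apart cut the number of transporters that passed from 9 to 4: Slc5a2, Slc7a7 and Slc7a8 stayed lower and Slc5a1 higher. Slc34a1 then differed by 0.98 log2 (adjusted p 0.0559), and Slc7a9 turned to 0.16 (adjusted p 0.762).

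**Figure D2:**
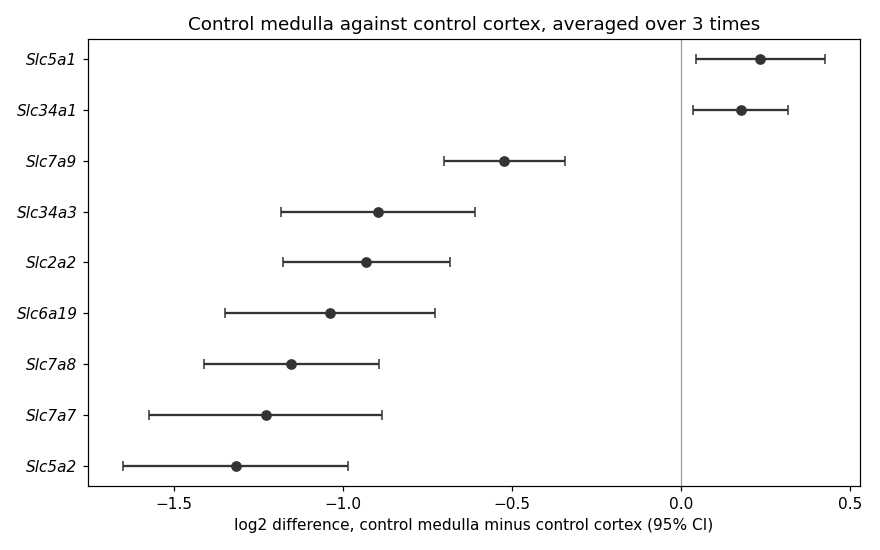
Difference of the 9 transporters between control medulla (9 arrays) and control cortex (8 arrays) on the log2 scale, averaged over 3 times; points are limma estimates and bars their 95% confidence intervals. Slc5a2 is lowest at -1.32, and Slc34a1 (0.18) and Slc5a1 (0.23) lie just above 0.

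The tissue labels were checked with lists of markers of the nephron parts, from which those named here were chosen after their values were seen. Of 10 other proximal tubule markers measured, 6 were lower and 1, Aqp1, was higher in control medulla (0.65 log2, adjusted p 1.64e-10, limma). A separate list for proximal tubule segment S3 had 1 of its 3 markers measured. That marker had mean log2 intensities of 8.34, 8.30 and 8.25 in control medulla at the rising times. In control cortex it had 7.79, 7.77 and 7.78. All 3 markers of the distal convoluted tubule, a cortical segment, were lower, among them Slc12a3 (-1.58 log2, adjusted p 3.53e-13), as were both podocyte markers, Wt1 (-1.02, adjusted p 1.10e-10) and Podxl (-0.45, adjusted p 0.00167). The thick ascending limb markers Slc12a1 (1.23, adjusted p 2.68e-16) and Cldn10 (0.89, adjusted p 1.91e-16) were higher, and the other 3 of that list did not pass. Collecting duct markers divided: the water channels Aqp2 (1.27, adjusted p 1.31e-13) and Aqp3 (0.43) were higher, and the sodium channel subunits Scnn1b (-1.13) and Scnn1g (-0.76) and Hsd11b2 (-0.56) were lower. All 4 macrophage markers measured were higher in medulla, with a median of 0.54 log2, and their part in the transporter differences was not tested. Signal of the 10 proximal tubule markers was also present in medulla. Their summed intensity was 53583 to 74176 over the control medulla groups and 62558 to 76911 over the control cortex groups. Such a sum weighs the brightest probes most and shows little of the dimmer markers. Bulk samples cannot tell fewer cells of a type from less RNA per cell.

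Other genes of phosphate, glucose and amino acid handling were read from lists. Of 12 phosphate genes measured, 7 were lower and 2 higher in control medulla, with a median of -0.27 log2. Kl, which encodes the FGF23 coreceptor Klotho, was lower by -0.96 ± 0.10 log2 (adjusted p 3.55e-11, limma), and the parathyroid hormone receptor Pth1r by -0.87 ± 0.10 (adjusted p 3.97e-10). The scaffold Pdzk1, which binds Slc34a1 at the membrane, differed by -0.17 (adjusted p 0.0142), whereas Slc9a3r1, the other scaffold, had -0.17 (adjusted p 0.248). The 2 higher genes, named after their values were seen, were the cotransporter Slc34a2 (0.42) and the scaffold Slc9a3r2 (0.37).

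Of 12 glucose genes, 7 were lower and 2 higher, with a median of -0.33 log2. The 2 higher genes were Slc2a1, the glucose carrier of the later nephron (1.08 ± 0.09 log2, adjusted p 2.33e-15, limma), and hexokinase Hk1 (0.77 ± 0.08, adjusted p 1.65e-11). The 18 amino acid genes divided otherwise: 9 were higher and 5 lower, with a median of 0.15 log2. Slc7a12, an amino acid transporter related to the Slc7 members, was higher by 2.25 ± 0.30 log2 (adjusted p 1.59e-08), and the peptide carrier Slc15a2 by 0.84 ± 0.10 (adjusted p 2.38e-09). The 5 lower genes were Cltrn and Slc3a2 and, named after their values were seen, Slc36a1 (-0.36), Slc16a10 (-0.33) and Slc43a2 (-0.21).

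The partners of the amino acid carriers lay lower in medulla together with them. Cltrn, the partner of Slc6a19, differed by -0.53 ± 0.08 log2 (adjusted p 1.23e-07, limma), and Slc3a2, the heavy chain of Slc7a7 and Slc7a8, by -0.67 ± 0.23 (adjusted p 0.0183). Of 4 genes measured for apical sodium transport and tubule transcription factors, 2 passed, Maf (-0.29, adjusted p 0.000386) and Hnf4a (-0.25, adjusted p 0.0481), both lower.

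Exposed kidneys were compared with controls at each dose, averaged over the 3 times. In cortex 0 of 9 transporters passed at 0.3 Gy, 3 Gy or 10 Gy, where 0.103%, 0.218% and 0.023% of the 8710 genes tested did. In medulla 0 of 9 passed at any dose, where 0.023%, 0.0691% and 0.0115% of 8682 genes did. Over all 26 comparisons of a dose with control or with another dose, including single times, 234 transporter tests gave 0 at an adjusted p of 0.05 in limma and 25 at an unadjusted p under 0.05, which is 10.7% of them against 6.53% for all genes over the same comparisons. These comparisons share control arrays and transporters vary together, so the tests are not independent. A p above the threshold does not show that levels were equal, so the intervals are given.

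In cortex the averaged differences ran from -0.06 to 0.22 log2 at 0.3 Gy, from -0.06 to 0.31 at 3 Gy and from -0.08 to 0.17 at 10 Gy. No 95% interval of a transporter reached below -0.38 or above 0.65 log2. In medulla the differences ran from -0.10 to 0.10, from -0.07 to 0.20 and from -0.14 to 0.05 log2 at the rising doses, with no interval below -0.44 or above 0.48.

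Of the differences averaged over times, those of Slc34a1 came nearest to the threshold. In cortex its group means lay above control by 0.22 ± 0.07 (SE) at 0.3 Gy, 0.21 ± 0.07 at 3 Gy and 0.17 ± 0.07 at 10 Gy on the log2 scale, with adjusted p of 0.283, 0.213 and 0.998 in limma. Of 9 arrays per dose, 9, 8 and 8 lay above the mean of the control at the same time. The control arrays were spread most widely, from 14.48 and 13.87 at 1.5 months through 14.30, 14.28 and 14.45 at 3 months to 14.09, 14.58 and 14.44 at 4.5 months. Every array at 0.3 Gy lay between 14.47 and 14.56. The control with 13.87 had the lowest Slc34a1 value of all 35 cortex arrays.

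Leaving out cortex control 1.5 months replicate 1, which leaves that low array alone in its group and assumes it to vary like the other groups, brought Slc34a1 past the threshold at 0.3 Gy (0.32 log2, adjusted p 0.0288) and 3 Gy (0.31, adjusted p 0.0411). Without replicate 2, the low array, the differences were 0.12, 0.11 and 0.07 log2 at the rising doses. With the array that stood apart kept, they were 1.02, 1.02 and 0.97 log2, and none passed. In medulla the differences of Slc34a1 were -0.10, -0.01 and 0.00 log2.

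At 3 Gy in cortex 2 more transporters had an unadjusted p under 0.05. Slc34a3 differed by 0.31 ± 0.13 log2 (adjusted p 0.312, limma) and Slc7a8 by 0.22 ± 0.11 (adjusted p 0.358). Slc5a2 had a difference of the same size, 0.31 ± 0.16 (adjusted p 0.404). None of the 3 followed the dose: at 10 Gy they differed by 0.08, -0.06 and 0.06 log2. The other 2 probes of Slc2a2 gave 0.39 and 0.29 log2 at 3 Gy, where the brightest gave 0.07. The contrast of 10 Gy with 0.3 Gy passed for 0 of 9 transporters in cortex, where 0.0459% of genes did, and for 0 of 9 in medulla, where 0% did.

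**Figure D3:**
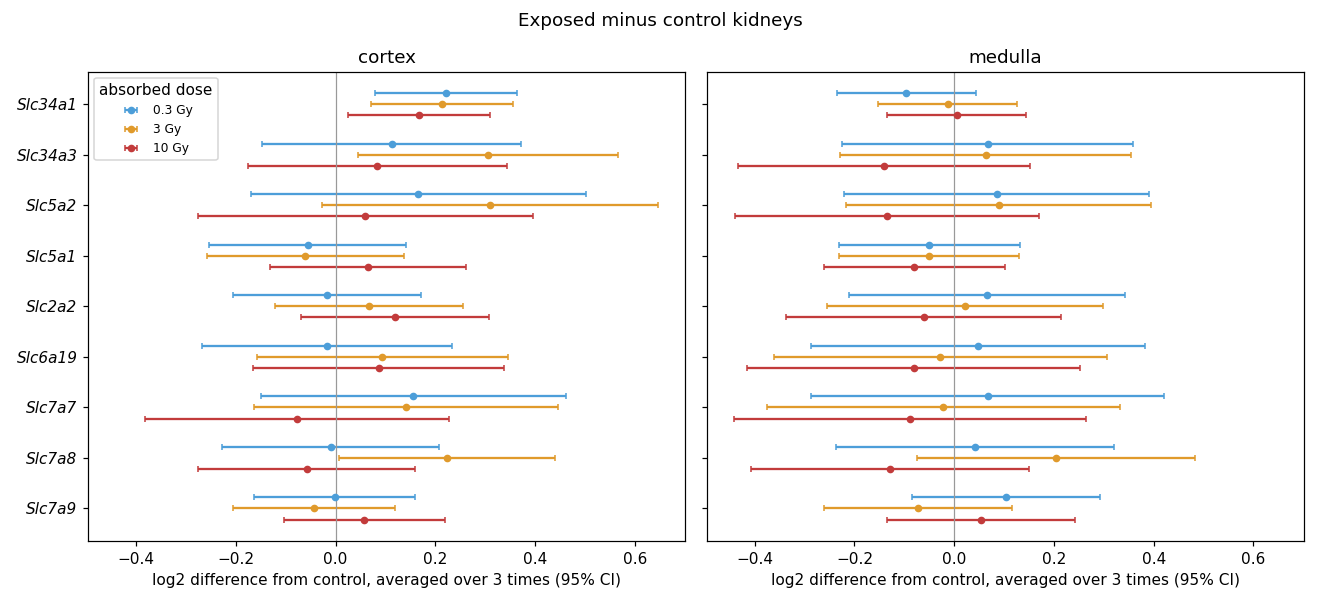
Difference of each transporter from control on the log2 scale at 0.3, 3 and 10 Gy, averaged over 3 times, in cortex and medulla; points are limma estimates and bars 95% confidence intervals. In cortex Slc34a1 lies at 0.22, 0.21 and 0.17, and most other intervals span 0.

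Single times were also compared. At 1.5 months 8, 7 and 7 of 9 transporters lay below control in cortex at 0.3, 3 and 10 Gy, with medians of -0.22, -0.12 and -0.24 log2, and 7, 8 and 6 of 9 in medulla, with medians of -0.37, -0.32 and -0.27. In cortex that control had 2 arrays, and all 9 transporters lay far lower on the array left out. The cortex directions at 1.5 months therefore depend on leaving it out. At 3 months the tissues differed: 8, 7 and 8 of 9 lay above control in cortex, with medians of 0.35, 0.26 and 0.13 log2, and 5, 7 and 2 of 9 in medulla, with medians of 0.00, 0.06 and -0.13. At 4.5 months 7, 8 and 9 of 9 lay above control in cortex, with medians of 0.15, 0.37 and 0.22 log2, and 8, 8 and 7 of 9 in medulla, with medians of 0.34, 0.47 and 0.08. Replicate 3 was the low array of the control group at 4.5 months in both tissues. Its transporters deviated from their group means by -0.36 log2 on average in cortex and -0.30 in medulla. In cortex it held the lowest value of 6 of the 9. The 3 doses share their control arrays at each time, so they are not separate observations. The medians of all genes stayed between -0.02 and 0.03 log2, and 42.9% to 54.8% of all genes lay below control.

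The smallest p of a transporter in any dose comparison was that of Slc7a8 in cortex at 3 Gy and 3 months. The controls had 9.60, 9.73 and 9.47 and the exposed arrays 10.33, 10.02 and 10.35. The difference was 0.63 ± 0.18 log2 (SE), with a p of 0.00127 before and 0.126 after adjustment in limma, so it did not pass. At this dose and time 12.4% of all genes had an unadjusted p under 0.05.

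At 0.3 Gy the mean of Slc6a19 lay below control at 1.5 months and above it at 4.5 months in both tissues. In cortex the controls had 12.55 and 12.14 at 1.5 months, 11.34, 11.31 and 11.20 at 3 months, and 11.77, 11.79 and 10.98 at 4.5 months, while at 0.3 Gy the values at 1.5 months were 11.69, 12.09 and 11.35. In medulla the controls had 11.31, 10.87 and 11.62 at 1.5 months and 10.26, 10.78 and 9.64 at 4.5 months, and at 0.3 Gy the arrays had 10.65, 10.79 and 10.40 and then 10.88, 10.82 and 10.55. In both tissues the control group at 1.5 months had the highest mean of all groups. In cortex this mean leaves out the array that stood apart, which had 7.04. Differences at 0.3 Gy were -0.63 (cortex) and -0.66 log2 (medulla) at 1.5 months, and 0.23 and 0.52 at 4.5 months, with adjusted p in limma of at least 0.747 for each.

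The dose by time test, an F test of whether the dose differences changed between times, passed for 0 of 9 transporters in cortex, where 0.023% of genes passed, and for 0 of 9 in medulla, where 0% did. In cortex Slc7a8 had the smallest p, 0.00502 before and 0.703 after adjustment. In medulla Slc6a19 (0.0311) and Slc34a3 (0.0389) were under 0.05 before adjustment only, both with an adjusted p of 0.845. At single times 0 of 9 transporters passed in any of the 18 comparisons with control. In cortex at 1.5 months 0%, 0.0115% and 0% of genes passed at 0.3, 3 and 10 Gy, at 3 months 0.023%, 0.0459% and 0%, and at 4.5 months 0.184%, 0.0344% and 0%. In medulla at 1.5 months 0% passed at each dose, at 3 months 0.0576%, 0.0461% and 0%, and at 4.5 months 0.0691%, 0.0115% and 0.0115%.

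The response to each dose was compared between the tissues. The difference between the medulla and the cortex response passed for 0 of 9 transporters at 0.3, 3 and 10 Gy, and for 0% of 9024 genes at each dose. Slc34a1 had the smallest p at 0.3 Gy, with a medulla response lower than the cortex response by -0.32 log2 (95% interval -0.51 to -0.12, unadjusted p 0.00208, adjusted p 0.785, limma). All 9 differences were below 0 at 10 Gy, from -0.22 to 0.00 log2, as were those of 46.5% of all genes. Transporters vary together, so these 9 are not separate observations.

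From the lists of phosphate, glucose, amino acid and tubule transcription genes, 0 passed at any dose averaged over times in either tissue. Hnf4a differed from control by 0.15, -0.05 and 0.10 log2 in cortex at the rising doses, Pdzk1 by -0.09, -0.05 and -0.09, and Slc9a3r1 by -0.27, 0.06 and -0.10. The heavy chain Slc3a2 differed by -0.01, -0.19 and 0.13 log2 in cortex and by -0.28, -0.11 and -0.11 in medulla. Cltrn differed by -0.07, -0.03 and 0.01 in cortex and by 0.16, 0.05 and 0.05 in medulla.

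The comparison of 4.5 with 1.5 months, averaged over control and the 3 doses, asked whether transporter levels changed between the first and the last time. In cortex 1 of 9 transporters passed, Slc34a3, against 3.86% of all 8710 genes, 2.3% lower and 1.56% higher. Slc34a3 fell by 0.56 ± 0.11 log2 (SE), 1.48-fold, with an adjusted p of 0.00467 in limma.

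The cortex controls had Slc34a3 values of 10.71 and 10.70 at 1.5 months, 10.24, 10.28 and 9.70 at 3 months, and 10.15, 9.82 and 9.29 at 4.5 months. At 0.3 Gy the arrays went from 10.86, 10.49 and 10.08 at 1.5 months to 9.78, 10.01 and 10.04 at 4.5 months. At 3 Gy they went from 10.49, 10.66 and 10.83 to 10.20, 10.32 and 10.31, and at 10 Gy from 10.19, 10.46 and 10.60 to 10.06, 9.51 and 10.53. The early and late arrays did not overlap in the control, 0.3 Gy and 3 Gy groups, as for 30.1%, 14.6% and 14.1% of all genes, and did at 10 Gy, where 10.4% of genes did not. Leaving out any one array kept the call, with falls of 0.50 to 0.62 log2, but with the array that stood apart kept the difference was -0.25 (adjusted p 0.761).

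Slc5a2 came next in cortex, with a difference of -0.43 ± 0.14 log2 (adjusted p 0.0763, limma), followed by Slc7a7 (-0.25, adjusted p 0.284) and Slc6a19 (-0.23, adjusted p 0.213). Slc5a2 passed under array weights (-0.42, adjusted p 0.0358) and without cortex control 4.5 months replicate 1 or cortex 0.3 Gy 1.5 months replicate 3. Slc34a1, Slc2a2 and Slc7a9 differed by 0.05, -0.01 and -0.09 log2, but both other probes of Slc2a2 gave -0.21, and those of Slc7a9 -0.19 and -0.06. In medulla 0 of 9 transporters passed over the same interval, where 1.28% of genes did, and Slc34a3 differed by -0.19 ± 0.12 log2 (adjusted p 0.546).

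In control kidneys alone the differences over time were larger and did not pass. In control cortex 8 of 9 transporters were lower at 4.5 months, as were 56% of all genes. Slc34a3 differed by -0.95 ± 0.24 log2 (adjusted p 0.162, limma), Slc7a7 by -0.93, Slc5a2 by -0.87, Slc6a19 by -0.83 and Slc7a8 by -0.59. Of all genes 0.0115% passed there, and 0 of 9 transporters. Leaving out 1 array at a time gave -1.15 to -0.72 for Slc34a3, -1.21 to -0.61 for Slc7a7 and -1.11 to -0.43 for Slc5a2. Slc6a19 then ran from -1.03 to -0.56 and Slc7a8 from -0.73 to -0.36. With the array that stood apart kept, each of these 5 differences turned positive, to between 0.06 and 0.94 log2. In control medulla, which had 3 arrays at both times, Slc6a19 differed by -1.04 ± 0.28 (adjusted p 0.129), Slc34a3 by -0.88 ± 0.25 (adjusted p 0.147), Slc7a7 by -0.73 and Slc5a2 by -0.61, with 0 of 9 passing and 0.0346% of all genes. Slc34a3, Slc5a2, Slc6a19, Slc7a7 and Slc7a8 were lower without overlap at 4.5 months in control medulla, where 18.5% of all genes did not overlap in either direction. Slc34a3 had 9.46, 9.55 and 9.85 against 8.86, 8.91 and 8.44. The same 5 and Slc7a9 did so in control cortex, with 2 arrays at 1.5 months and 30.1% of all genes. In exposed medulla Slc34a1 and Slc7a8 were higher without overlap at 0.3 Gy (15.3% of all genes), and 0 of 9 transporters were apart at 3 Gy (7.08%) and at 10 Gy (6.78%).

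Macrophage markers rose over the same interval. In cortex all 4 measured passed, Adgre1 by 0.51 ± 0.07 log2 (adjusted p 0.000418, limma), C1qc by 0.51 (adjusted p 0.0135), C1qb by 0.43 (adjusted p 0.0419) and C1qa by 0.20 (adjusted p 0.0371). Their summed intensity was 872 to 897 in control cortex at 1.5 months and 1091 to 1637 at 4.5 months. In medulla C1qa (0.28, adjusted p 0.0172) and C1qc (0.50, adjusted p 0.0390) passed, and the sum went from 945.0 to 1251 in the controls at 1.5 months to 1964 to 2711 at 4.5 months. In the exposed medulla groups the mean log2 sum went from 10.25 to 10.75 at 0.3 Gy, from 10.40 to 10.80 at 3 Gy and from 10.68 to 10.72 at 10 Gy, and in the controls from 10.14 to 11.11; these steps were not tested against each other. Their part in the fall of Slc34a3 was not tested. Other proximal tubule markers did not pass in either tissue (0 of 10). Of the other glucose, phosphate and amino acid genes only Slc5a8, a sodium-monocarboxylate carrier of the tubule, passed in cortex, falling by 0.34 ± 0.09 log2 (adjusted p 0.0264).

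Arrays of the same group differed in several transporters at once. Deviations from the group mean were correlated between the 9 transporters over the arrays of each tissue, as a description of arrays that share scale and RNA source. In cortex (35 arrays) 25 of 36 pairs had r above 0, with a median of 0.29, and in medulla (36 arrays) 33 of 36 pairs, with a median of 0.52. Slc34a3, Slc5a2, Slc6a19, Slc7a7 and Slc7a8 formed the tightest group, with r of 0.56 to 0.77 in cortex and 0.59 to 0.84 in medulla. Slc2a2 was near this group, with r of 0.40 to 0.73 to its members in cortex and 0.39 to 0.77 in medulla.

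Slc34a1 and Slc5a1 stood outside the tightest group. In cortex r between Slc34a1 and the other 8 ran from -0.28 (Slc34a3) to 0.03 (Slc7a8), whereas in medulla it ran from 0.26 to 0.56. The place of Slc34a1 near the top of the scale limits how far its values can differ. Its effect on these r was not tested. Slc5a1 went against Slc7a8 in cortex (r = -0.42) and against Slc7a7 in medulla (r = -0.28), and its highest r in medulla was with Slc7a9 (0.54). Some arrays were low in several transporters at once. Cortex control 4.5 months replicate 3 held the lowest value of 6 of the 9 transporters in cortex, while its sum over 4 macrophage markers, 1630, was the highest but 1 of 35 arrays, and its sum over 10 other proximal tubule markers, 74966, ranked 4 from the highest. Medulla 3 Gy 1.5 months replicate 1 held the lowest value of 5 of the 9 in medulla, with sums of 1874 and 60490, which ranked 10 and 31 of 36 from the highest. These sums weigh the brightest probes most and do not measure the share of a cell type. What those arrays share was not tested further.

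**Figure D4:**
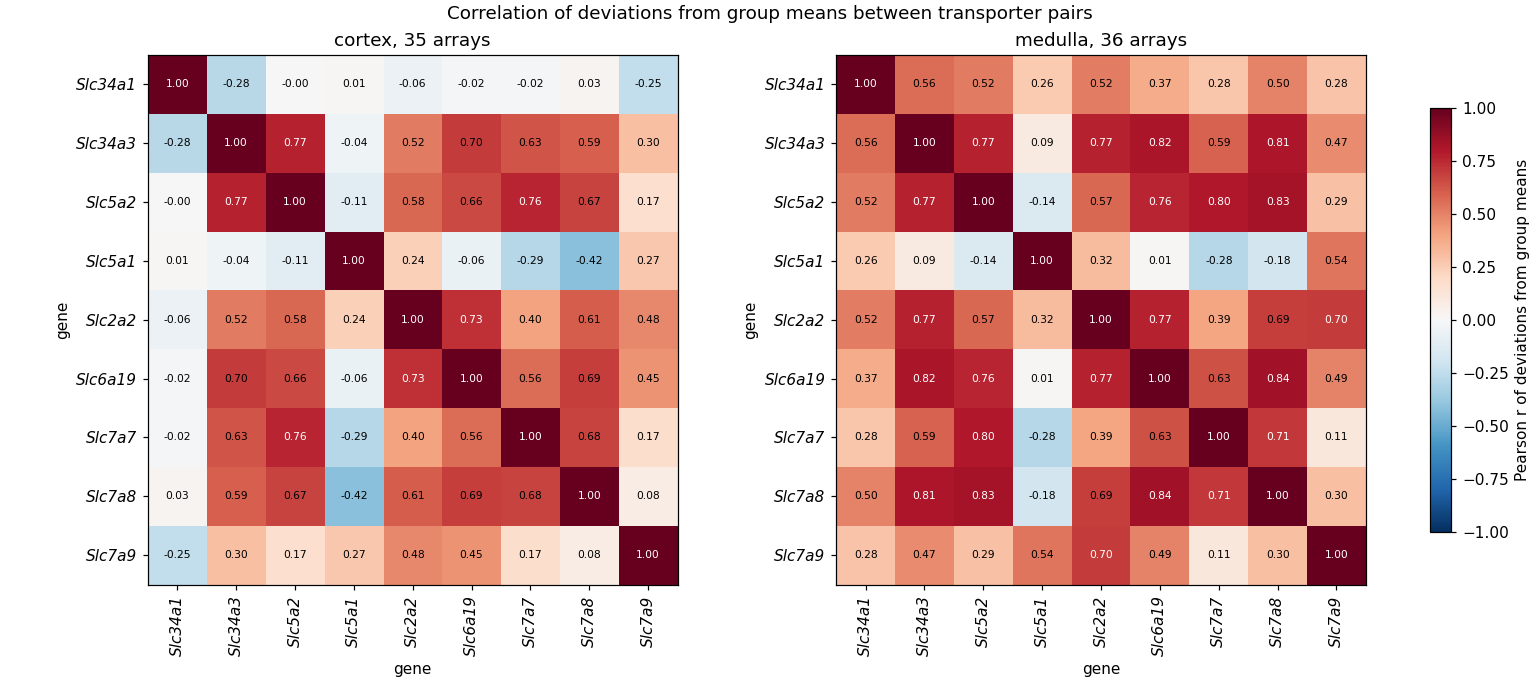
Pearson r between the deviations of 2 transporters from their group means, over 35 cortex arrays (left) and 36 medulla arrays (right); red is positive and blue negative. The block of Slc34a3, Slc5a2, Slc6a19, Slc7a7 and Slc7a8 is red in both tissues, and the Slc34a1 row is near 0 or negative in cortex.

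The 5 genes whose deviations most resembled the mean of the transporters were found by the same measure. In cortex they were Dpep1, a dipeptidase of the tubule brush border (r = 0.87 over 35 arrays), the folate receptor Folr1 (0.78), D630023F18Rik (0.78), Spp2 (0.78) and Fam151a (0.76). In medulla they were Spp2 (0.87 over 36 arrays), Chrna4 (0.86), the alkaline phosphatase Alpl (0.86), D630023F18Rik (0.85) and Agxt2 (0.85), an aminotransferase. The median r over all other genes was -0.01 in cortex and -0.02 in medulla. The mean of the other proximal tubule markers correlated with the transporters at r = 0.87 in medulla and 0.17 in cortex. The 3 distal convoluted tubule markers, also cortical, had r = 0.80 in medulla and -0.23 in cortex, and the macrophage markers -0.50 and -0.29. Macrophage markers were not alone in this. In cortex the collecting duct (-0.43), thick ascending limb (-0.40) and red blood cell markers (-0.32) lay lower. Endothelial (-0.43) and thick ascending limb markers (-0.39) were negative in medulla, and podocyte markers positive in both tissues (0.61 in medulla, 0.16 in cortex). The 1 measured marker of proximal tubule segment S3 had r = -0.21 in medulla and -0.29 in cortex.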

How the data were processed

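RNA was extracted with a lipid tissue kit, checked on a Bioanalyzer, biotin-labelled and hybridised, per the labels. The intensities deposited by the authors are linear and, as the files show, nearly quantile-normalized: the highest intensity is 25866 on every array, array medians lie between 143.4 and 143.9, and sorted columns differ by at most 1.26. How they were made is not given in the sources used here. A second table, with 144 columns of per-sample values, was not used.

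Probes were named through GEO's platform annotation, with symbols updated through RefSeq: 23978 of 25697 probes had 1 symbol, 0 several and 1719 none. Log2 was taken with no offset. Probes at 150 or above on all arrays of at least 1 group were kept, and the brightest probe stood for a gene. The number of arrays limits the precision. Group means were fitted with limma 3.58.1 in R 4.3.3 (trend, Benjamini-Hochberg over all genes, threshold 0.05), within cortex, within medulla and jointly, for 36 comparisons. Intervals are 95%. Scripts were tested on simulated data. No pair of arrays had identical values. Promoter letters were searched with Python 3.11.15.

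All 9 transporters with a probe were described. From the other lists, genes past the threshold in averaged, time or tissue comparisons were named (at most 6 with the smallest p per comparison), with partners of the transporters and the 5 most alike genes per tissue. Members and lists were chosen with earlier results of these data known, and leaving out cortex control 1.5 months replicate 3 was chosen after its values were seen. Alternatives were that array kept, each other array left out, only the compared arrays, array weights, cyclic loess, normexp (offset 50), no floor, a floor of 200, the mean of a gene's probes and a replicate block.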

Additional observations from a re-analysis of the deposited data

How the results depend on the processing

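Of 805 alternative counts of transporters past the threshold, over 36 comparisons, 781 were identical to the main count and 798 lay within 1.5 times of it; for control medulla against control cortex 8 of 26 were identical. With cortex control 1.5 months replicate 3 kept, the count fell from 1 to 0 for cortex 4.5 against 1.5 months and from 9 to 4 for control medulla against control cortex. With array weights the cortex count over time was 2. Leaving out each array in turn gave 1 to 2 there, 0 to 1 for cortex 0.3 and 3 Gy against control, in each case 1 without cortex control 1.5 months replicate 1, and 7 to 9 for the tissues. With the array kept, Slc7a7, Slc5a2, Slc34a3, Slc7a8 and Slc6a19 in control cortex over time turned to 0.056, 0.27, 0.30, 0.23 and 0.94, Slc6a19 over time averaged over control and doses to 0.21, and Slc7a9 between tissues to 0.16. The cause is the array itself, on which the transporters lay 1.98 to 7.55 log2 units lower. Of 5779 alternative values of the 278 differences that had an unadjusted p of 0.05 or more, 377 changed sign and 0 passed.

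The labels do not say that same-numbered cortex and medulla arrays share an animal, and the block is therefore an alternative. Of 35 such pairs, 21 had deviations with r over 0.1 and 23 correlated best with their own number, from -0.44 to 0.67, which is a hint of shared origin in part of the groups and does not settle it. With the replicate block between tissues the count was 8 of 9, Slc5a1 (0.19, adjusted p 0.0976) being the one lost; with the block within a tissue the cortex count over time stayed at 1.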
